A study of Mus musculus with 9 samples.

Results

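The genes described here mark the stem cells at the base of the intestinal crypt or are classical targets of Wnt signalling. They are *Lgr5*, *Ascl2*, *Olfm4*, *Smoc2*, *Axin2*, *Rnf43*, *Znrf3*, *Sox9*, *Ephb2* and *Cd44*, measured in the large intestine of mice with a missense mutation in the mucin gene *Muc2*. Members were all probe sets (groups of short oligonucleotides that together measure 1 transcript) paired with 1 of these 10 genes and with no other gene. Of the 10 genes, 9 had such a probe set, and *Ephb2* was not analysed here. The 9 genes held 20 probe sets out of 45037 on the array that are not controls, which together cover 18193 genes. Of the 20, 12 probe sets from 8 genes were bright enough on average to enter the tests, and 8 were not. *Olfm4* had no probe set bright enough.

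Crypts of the large intestine are renewed by stem cells at their base, which carry the receptor Lgr5. Wnt proteins from the surrounding tissue bind Frizzled and Lrp receptors, stabilise β-catenin and so switch on target genes together with TCF factors, and R-spondins bound to Lgr receptors strengthen the signal by removing Rnf43 and Znrf3 from the cell surface. Cells that leave the crypt base receive less Wnt signal, divide for a time and then differentiate into absorptive and goblet cells.

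RNA came from the opened and rinsed large intestine, with proximal and distal parts pooled for each mouse, of 3 wild-type, 3 *Winnie* and 3 *Eeyore* mice, 1 array per mouse, all labelled male and 8 wk old. Wild-type mice were C57BL/6. *Winnie* mice are a C57BL/6 line from chemical (ENU) mutagenesis, with a tyrosine in place of a cysteine in the D3 domain of Muc2. *Eeyore* mice come from a similar mutagenesis, have a proline in place of a serine in the D4 domain, and by their label combine C57BL/6 with NOD-SCID background, so that in this group the *Muc2* allele and the genetic background cannot be told apart. Zygosity and litter were not in the labels, and no treatment is named for any group.

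Before the members, some properties of the arrays bear on every comparison with wild-type. *Xist*, which is transcribed from the inactive X chromosome of females, had a signal of 7371 to 8261 on the wild-type arrays and of 9.13 to 107 on the mutant arrays, and the Y-linked gene *Eif2s3y* had a signal of 4.73 to 24.1 on the wild-type arrays and of 1074 to 1454 on the mutant arrays. The 3 wild-type arrays thus went against their labelled sex, and sex and *Muc2* allele cannot be told apart in the comparisons with wild-type, whereas *Eeyore* and *Winnie* arrays had the same sex markers. *Muc2* itself was at 70046 to 85946 in wild-type, 25759 to 35694 in *Winnie* and 32542 to 36854 in *Eeyore* mice. Signals are linear intensities that the authors scaled to an equal trimmed mean on each array. The median signal was nevertheless 119 to 129 on wild-type and 88.1 to 99.5 on mutant arrays. With the deposited scaling, *Winnie* arrays had 2195 probe sets called higher and 2639 called lower, and *Eeyore* arrays had 2747 called higher and 3842 called lower. With each array centred on its own median, these numbers became 7234 and 853 for *Winnie* and 6350 and 1877 for *Eeyore*, and the median log2 fold change of all tested probe sets moved from -0.09 to 0.32 and from -0.09 to 0.24. With each array centred on markers of epithelium, *Winnie* arrays had 1060 higher and 4708 lower, and *Eeyore* arrays had 950 higher and 7887 lower. Every direction below is therefore relative to the deposited scaling. Calls of members that another scaling ended are named, and for the other gene lists the counts with median centring stand beside the counts with the deposited scaling. In tissue RNA, fewer cells of a type and less RNA per cell cannot be told apart.

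Promoter windows were given for 6 of the 10 members, as the 250 bases upstream of the start of the RefSeq transcript (GRCm38.p6), 7 windows in all because *Rnf43* has 2 starts. The windows of *Ascl2*, *Rnf43* (first start) and *Cd44* are shown because these 3 genes carried calls in the comparisons below. *Ascl2* lies at chr7:142969265-142969514 (minus strand), *Rnf43* at chr11:87662837-87663086 (plus strand) and *Cd44* at chr2:102901666-102901915 (minus strand). Capitals mark the letters CCAAT on either strand, a motif chosen after the windows had been read.
*Ascl2*: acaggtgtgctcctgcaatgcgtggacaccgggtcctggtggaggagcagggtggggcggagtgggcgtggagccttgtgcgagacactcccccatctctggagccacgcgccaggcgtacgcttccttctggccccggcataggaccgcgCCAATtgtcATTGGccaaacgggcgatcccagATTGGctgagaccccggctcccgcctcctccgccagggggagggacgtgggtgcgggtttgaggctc
*Rnf43*: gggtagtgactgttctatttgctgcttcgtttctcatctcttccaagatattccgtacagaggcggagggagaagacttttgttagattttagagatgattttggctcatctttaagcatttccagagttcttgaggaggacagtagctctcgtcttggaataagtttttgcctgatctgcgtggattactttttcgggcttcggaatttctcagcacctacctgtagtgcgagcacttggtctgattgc
*Cd44*: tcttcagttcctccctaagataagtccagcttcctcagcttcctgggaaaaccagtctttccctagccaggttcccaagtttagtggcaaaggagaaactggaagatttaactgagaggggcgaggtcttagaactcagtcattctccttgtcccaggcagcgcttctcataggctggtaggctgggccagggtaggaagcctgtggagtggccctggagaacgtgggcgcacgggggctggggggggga
The TCF/LEF core letters CTTTGAT were in 0 of the 7 member windows, on either strand, and in 3.21% of 32851 windows of all genes, and CTTTGTT was in 0 of 7 against 5.03%. CCAAT was in 3 of 7 windows, with 3 matches in that of *Ascl2*, against 33.8% of all windows. The GC content was 67.6% for *Ascl2*, 44.4% for *Rnf43* and 56.4% for *Cd44*, beside a median of 52.4% over all windows. *Ascl2* lies on the same chromosome as *Muc2*, with 31 protein-coding genes between them. These matches describe letters in a short window and no binding was measured.

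The receptor gene of crypt base stem cells had lower signals in both mutant strains, and the fall passed the test in *Winnie* mice. *Lgr5*, on chromosome 10, encodes the R-spondin receptor that defines these cells. Its brighter probe set (1450988_at) gave signals of 516, 399.5 and 396 in the wild-type, 190.1, 237 and 172 in the *Winnie* and 297, 316 and 261 in the *Eeyore* mice. No wild-type value overlapped with either mutant group, and the *Eeyore* values lay between the other groups without overlap. In *Winnie* mice *Lgr5* fell 2.19-fold (log2 fold change -1.13 ± 0.21 (SE), adjusted p = 0.00315 by limma). In *Eeyore* mice the log2 fold change was -0.58 ± 0.21 (adjusted p = 0.0537), and between *Eeyore* and *Winnie* it was 0.55 ± 0.21 (adjusted p = 0.226). The levels thus ran from wild-type through *Eeyore* to *Winnie*, and neighbours in that order did not differ past the threshold. The other probe set (1444519_at) lay between 3.78 and 100.3 on all arrays, with overlapping groups, and was too dim to be tested. Of the alternatives run, only the mean over both probe sets ended the *Winnie* call (adjusted p = 0.253).

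*Ascl2*, on chromosome 7, encodes a Wnt-dependent transcription factor that maintains the crypt base stem cell state. Its brightest probe set (1460514_s_at) read 529, 232 and 236 in wild-type mice. It read 30.9, 114 and 25.9 in the *Winnie* group and 72.2, 63.8 and 197 in the *Eeyore* group. Both mutant groups lay wholly below the wild-type group, and the mice of each mutant group lay far apart from each other. The fall in *Winnie* mice was 6.82-fold (log2 fold change -2.77 ± 0.62, adjusted p = 0.00874), the greatest among the members, and it held under every alternative that tested it (adjusted p 0.00388 to 0.0472). In *Eeyore* mice the log2 fold change was -1.67 ± 0.62 (adjusted p = 0.0615). Of the 3 *Winnie* signals, 2 were under 41.2, which is the top value that the lower quartile reaches on these arrays, so the size of the fall is imprecise. The 2 dimmer probe sets were not tested. 1 of them (1432018_at) read 71.1 to 134 in wild-type, 29.1 to 66.9 in *Winnie* and 10.7 to 63.5 in *Eeyore* mice, with no overlap between wild-type and either mutant group. The other (1422396_s_at) read 56.3 to 127, 35.4 to 64.2 and 2.22 to 91.4, with overlap. The ending _s_at marks probe sets that can match more than a single transcript.

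*Olfm4*, on chromosome 14, encodes a secreted glycoprotein that marks stem cells of the human colon and the mouse small intestine. Its only probe set (1437060_at) was at 4.82, 8.90 and 7.98 in wild-type, 49.6, 5.81 and 49.6 in the *Winnie* group and 2.51, 1.87 and 71.2 in the *Eeyore* group. Most *Winnie* mice (49.6 and 49.6) and an *Eeyore* mouse (71.2) stood above the wild-type values. All groups nevertheless overlapped at this low signal and no difference was detectable (unfiltered limma fit, adjusted p = 0.532 for *Winnie* and 0.997 for *Eeyore*).

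*Smoc2*, on chromosome 17, encodes a secreted calcium-binding matrix protein found in the *Lgr5* stem cell signature. The brighter probe set (1415935_at) read 704, 807 and 778 in wild-type, 822, 863 and 644 in the *Winnie* group and 899.8, 705 and 684 in the *Eeyore* group. The groups overlapped throughout, and the log2 fold changes were 0.02 ± 0.16 (adjusted p = 0.956) and -0.01 ± 0.16 (adjusted p = 0.977). The dimmer probe set (1431362_a_at) read 199, 186 and 262 in wild-type, 213, 242 and 235 in the *Winnie* group and 396, 385 and 335 in the *Eeyore* group. This probe set rose 1.74-fold in *Eeyore* mice (log2 fold change 0.80 ± 0.21, adjusted p = 0.0133), with all *Eeyore* values above all others, and its *Winnie* value was 0.11 ± 0.21 (adjusted p = 0.751). The probe sets of this gene therefore differed in the *Eeyore* comparison.

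**Figure D1:**
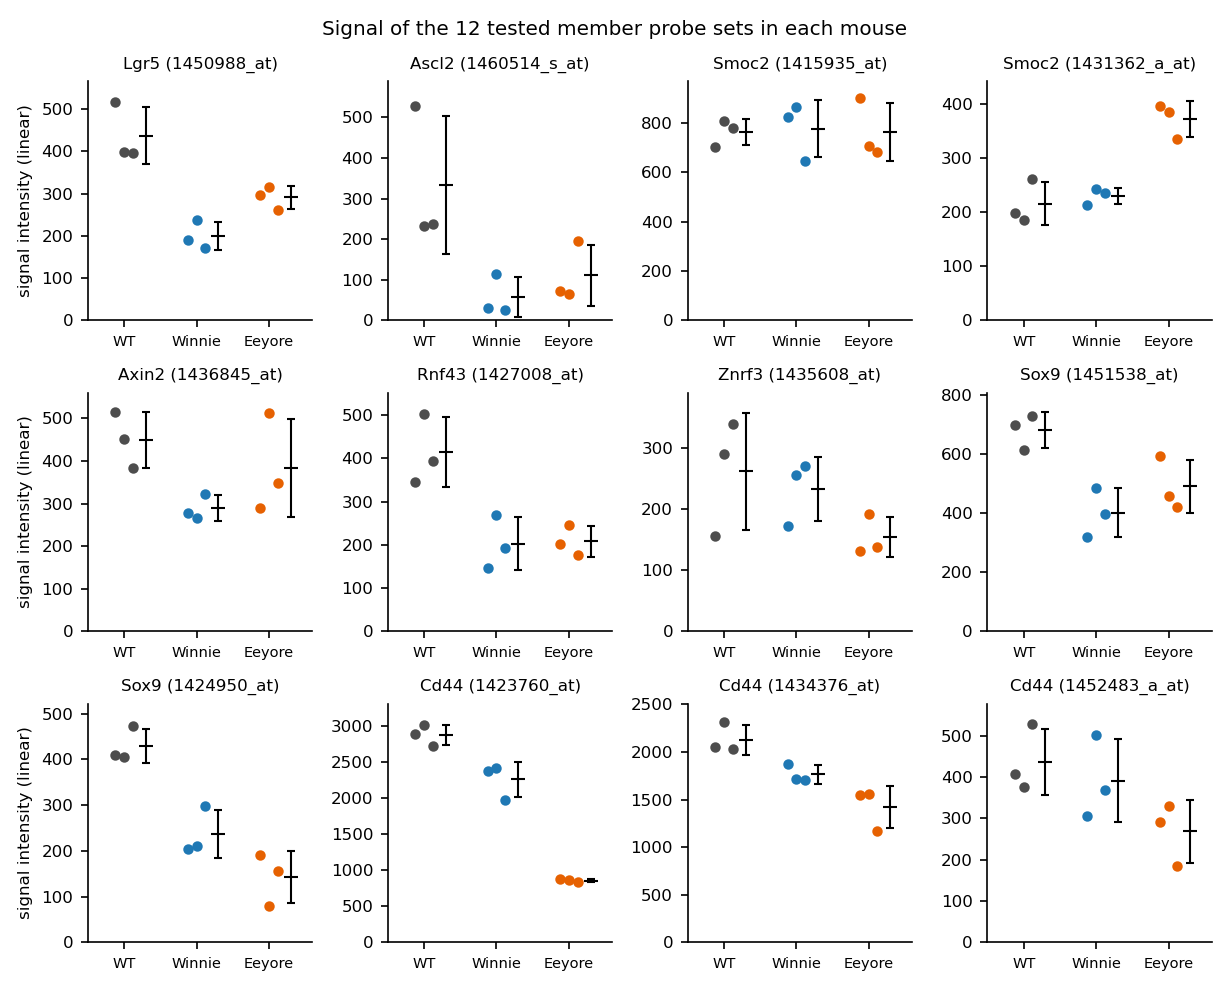
Linear signal intensity (vertical axis, arbitrary units, starting at 0) of each tested member probe set in each of the 9 mice, by group, with points for mice and a bar for the group mean and SD. For *Lgr5* the wild-type points (396 to 516) lie above all mutant points, whereas for *Smoc2* 1415935_at the groups overlap.

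Among the genes that report and restrain Wnt signalling, *Rnf43* was lower in both strains, *Axin2* had lower values in *Winnie* mice without passing the test, and *Znrf3* overlapped between groups. *Rnf43*, on chromosome 11, encodes a ubiquitin ligase that removes Frizzled receptors from the cell surface and is itself a Wnt target. Its single probe set (1427008_at) gave 345, 503 and 394 in wild-type, 147, 269.5 and 193 in the *Winnie* group and 203, 247 and 176 in the *Eeyore* group. Every mutant value was below every wild-type value. *Rnf43* fell 2.08-fold in *Winnie* (log2 fold change -1.06 ± 0.26, adjusted p = 0.0151) and 1.98-fold in *Eeyore* mice (-0.99 ± 0.26, adjusted p = 0.0156), and the strains differed by 0.07 ± 0.26 (adjusted p = 0.934). Both calls were lost with median centring (adjusted p = 0.0958 and 0.0881), with log2 fold changes of -0.65 and -0.66, and both were also lost without wild-type mouse 2.

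*Znrf3*, on chromosome 11, encodes the paralogue of Rnf43 with the same action on Frizzled receptors. Its brighter probe set (1435608_at) read 155.5, 290.1 and 339 in wild-type, 173, 255 and 271 in the *Winnie* group and 132, 192 and 139 in the *Eeyore* group. The wild-type values overlapped with both mutant groups. The log2 fold change for *Winnie* was -0.12 ± 0.32 (adjusted p = 0.822) and that for *Eeyore* was -0.71 ± 0.32 (adjusted p = 0.12). The other probe set (1437646_at) ran from 2.79 to 95.8 and was not tested.

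*Axin2*, on chromosome 11, encodes a scaffold of the β-catenin destruction complex and is a widely used reporter of Wnt activity. Signals of its brighter probe set (1436845_at) were 516, 451 and 383 in wild-type, 278, 265 and 323 in the *Winnie* group and 289, 512 and 348 in the *Eeyore* group. All *Winnie* values were below all wild-type values, whereas *Eeyore* mouse 2 was as high as wild-type mice. The log2 fold change for *Winnie* was -0.63 ± 0.23 (adjusted p = 0.0654) and that for *Eeyore* was -0.26 ± 0.23 (adjusted p = 0.407). Of 20 alternatives, 4 called *Axin2* lower in *Winnie* mice, among them epithelial centring. The sign turned positive in 1 of 20 alternatives for *Winnie* (0.50) and in 2 of 20 for *Eeyore* mice (up to 0.47), without a call. The other probe set (1421341_at) ran from 4.17 to 135 and was not tested.

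The remaining members act in progenitors and in cell position and adhesion. *Sox9*, on chromosome 11, encodes a transcription factor of crypt base and progenitor cells. Its brightest probe set (1451538_at) read 701, 616 and 732 in wild-type, 321, 487 and 399.7 in the *Winnie* group and 595, 458 and 422 in the *Eeyore* group. No mutant value reached the wild-type range. *Sox9* fell 1.72-fold in *Winnie* mice (log2 fold change -0.78 ± 0.19, adjusted p = 0.015), and in *Eeyore* mice the value was -0.49 ± 0.19 (adjusted p = 0.0799). A second probe set (1424950_at) read 410.0, 405 and 473 in wild-type, 204, 211 and 298 in the *Winnie* group and 192, 80.3 and 155 in the *Eeyore* group. On this probe set the order of the mutant strains was the other way round, with a fall of 3.20-fold in *Eeyore* (-1.68 ± 0.31, adjusted p = 0.0021) and a value of -0.87 ± 0.31 in *Winnie* mice (adjusted p = 0.0633). The remaining probe set (1433889_at) was dim, at 43.4 to 69.9 in wild-type, 6.66 to 81.3 in *Winnie* and 4.71 to 9.80 in *Eeyore* mice, and was not tested. The *Winnie* call of the brightest probe set was lost with median centring (log2 fold change -0.37, adjusted p = 0.197), without wild-type mouse 1 and with the mean over the probe sets.

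*Cd44*, on chromosome 2, encodes the hyaluronan receptor, an adhesion molecule of crypt base cells that is also made by leukocytes and stromal cells. Its brightest probe set (1423760_at) read 2889, 3008 and 2728 in wild-type, 2380.2, 2421 and 1980.0 in the *Winnie* group and 877, 860.1 and 834 in the *Eeyore* group. The 3 groups did not overlap, and the *Eeyore* mice lay close together. In *Eeyore* mice this probe set fell 3.35-fold against wild-type (log2 fold change -1.75 ± 0.11, adjusted p = 2.06e-06) and 2.63-fold against *Winnie* mice (-1.39 ± 0.11, adjusted p = 3.67e-05). In *Winnie* mice it fell 1.28-fold (-0.35 ± 0.11, adjusted p = 0.0456), a call that held under 9 of 21 alternatives and had a log2 fold change of 0.06 with median centring (adjusted p = 0.761). A second probe set (1434376_at) read 2049, 2311 and 2028 in wild-type, 1880, 1712 and 1702 in the *Winnie* group and 1546, 1556 and 1171 in the *Eeyore* group. It fell 1.50-fold in *Eeyore* mice (-0.59 ± 0.13, adjusted p = 0.00634), and the difference between *Eeyore* and *Winnie* was -0.32 ± 0.13 (adjusted p = 0.276). Another (1452483_a_at) read 406, 375 and 528, then 304.5, 500.4 and 368, then 292, 331 and 184 in the same order of groups, with a log2 fold change of -0.17 ± 0.26 for *Winnie* (adjusted p = 0.674) and of -0.73 ± 0.26 for *Eeyore* (adjusted p = 0.0557). The dimmest (1443265_at) ran from 5.73 to 30.4 and was not tested.

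**Figure D2:**
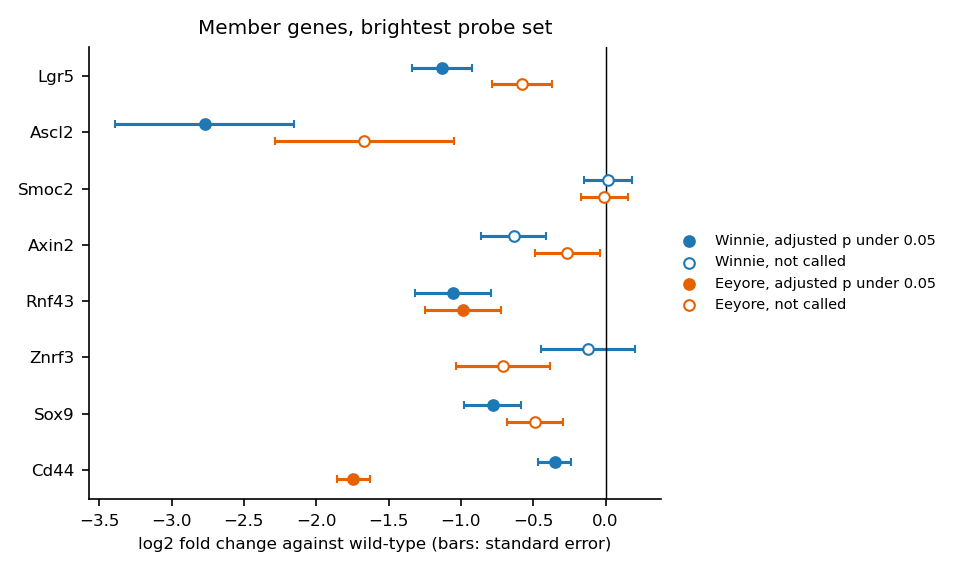
Log2 fold change against wild-type (horizontal axis, log2 units, bars for the standard error of the fit) of the brightest probe set of the 8 tested genes in *Winnie* and *Eeyore* mice, filled where the adjusted p is under 0.05. *Ascl2* lies farthest below 0 in *Winnie* (-2.77) and *Cd44* in *Eeyore* mice (-1.75), and *Smoc2* lies near 0 in both.

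By its brightest probe set, 5 of the 8 tested genes fell in *Winnie* mice (*Lgr5*, *Ascl2*, *Rnf43*, *Sox9* and *Cd44*) and 0 rose. The same call was made for 11.9% of all 11453 tested genes in the downward and 11.3% in the upward direction. In *Eeyore* mice 2 of 8 fell (*Rnf43* and *Cd44*) and 0 rose, against 16.6% lower and 14.0% higher over all genes. Groups did not overlap, with the mutants below, for 6 of 8 genes in *Winnie* and 5 of 8 in *Eeyore* mice, and for 24.3% and 25.3% of all 11453 tested genes. With the mutants above, this held for 0 of 8 genes in each strain, against 19.7% and 20.7% of all. The median log2 fold change of the 8 genes was -0.71 in *Winnie* and -0.64 in *Eeyore* mice, beside -0.05 and -0.04 over all tested genes. Over the 12 tested probe sets, 5 fell in *Winnie* mice and 0 rose (11.7% and 9.75% over all tested probe sets), and 4 fell and 1 rose in *Eeyore* mice (17.1% and 12.2%). Both comparisons share the 3 wild-type mice. With median centring 2 genes (*Lgr5* and *Ascl2*) fell in *Winnie* and 1 (*Cd44*) in *Eeyore* mice, beside 853 and 1877 of all 22519 tested probe sets called lower. With epithelial centring 6 of the 8 genes fell in each strain, beside 4708 and 7887 probe sets called lower in *Winnie* and *Eeyore* mice.

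The direct comparison of the mutant strains does not use the wild-type arrays in its difference. Of the 8 genes, 1 (*Cd44*) was lower in *Eeyore* than in *Winnie* mice and 0 were higher, against 1.30% lower and 1.29% higher over all genes. The values of *Lgr5* (0.55) and *Ascl2* (1.10) were positive without passing the test, and that of *Znrf3* was -0.59 ± 0.32 (adjusted p = 0.428). The call for *Cd44* was lost with the mean over its probe sets (limma log2 fold change -0.47, adjusted p = 0.289).

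For 3 members, probe sets of the same gene gave different answers in *Eeyore* mice, and the ratio between 2 probe sets in each mouse shows this without any scaling between arrays. The ratio of *Cd44* 1423760_at to 1434376_at was 1.41, 1.30 and 1.34 in wild-type, 1.27, 1.41 and 1.16 in the *Winnie* group and 0.567, 0.553 and 0.712 in the *Eeyore* group. The ratio of *Cd44* 1423760_at to 1452483_a_at was 5.17 to 8.02 in wild-type, 4.84 to 7.82 in *Winnie* and 2.60 to 4.54 in *Eeyore* mice. For *Sox9* (1451538_at to 1424950_at) it was 1.52 to 1.71 in wild-type, 1.34 to 2.31 in *Winnie* and 2.72 to 5.70 in *Eeyore* mice. For *Smoc2* (1415935_at to 1431362_a_at) it was 2.97 to 4.33 in wild-type, 2.75 to 3.87 in *Winnie* and 1.83 to 2.28 in *Eeyore* mice. In each of the 4 pairs the *Eeyore* mice lay outside the wild-type range and *Winnie* mice overlapped with it. These genes are the only members with several tested probe sets. The share of such pairs over all genes on the array was not computed. The mean log2 ratio differed from wild-type by -1.16, -1.02, 1.19 and -0.81 in *Eeyore* and by -0.08, -0.18, 0.09 and -0.09 in *Winnie* mice. The size of the *Eeyore* changes of these genes therefore depends on the probe set, and allele and genetic background cannot be told apart here.

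**Figure D3:**
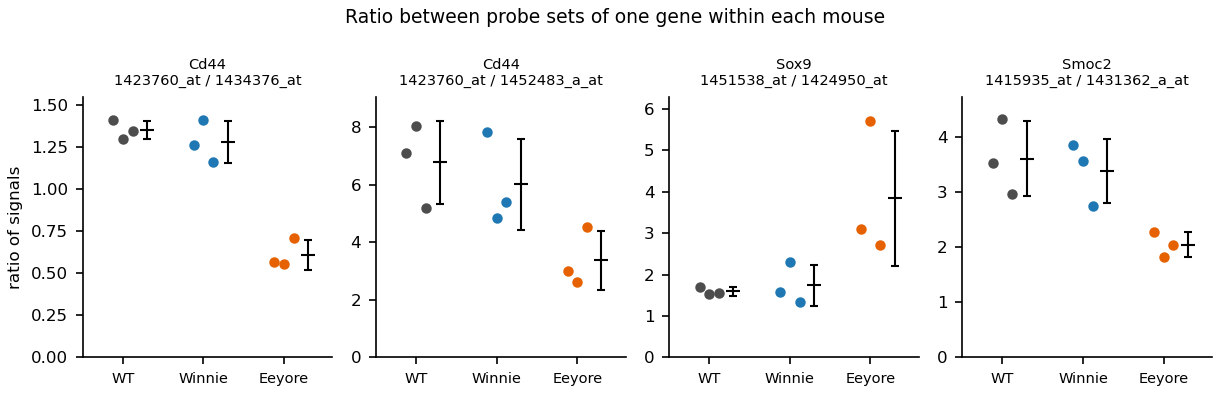
Ratio of the signals of 2 probe sets of the same gene on the same array (vertical axis, starting at 0) for *Cd44*, *Sox9* and *Smoc2* in each mouse, by group, with a bar for the group mean and SD. The *Eeyore* points lie apart from the wild-type points in all 4 panels, for example 0.553 to 0.712 against 1.30 to 1.41 for the first *Cd44* pair.

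Over the 9 arrays, the members whose brightest probe set ran most like that of *Lgr5* (Pearson r of log2 signals, given as a description) were *Sox9* (0.88), *Ascl2* (0.88), *Rnf43* (0.79) and *Axin2* (0.75), while *Cd44* (0.21), *Smoc2* (0.06) and *Znrf3* (0.02) did not follow it. When all other tested genes were ordered by this r, *Sox9* ranked 74, *Ascl2* 82, *Rnf43* 398 and *Axin2* 634, so many other genes ran as closely. Among all tested genes the highest values were those of *Pdlim4* (0.99), whose product links LIM proteins to the actin cytoskeleton, *Nfkbil1* (0.96), *Bik* (0.95), which encodes a pro-apoptotic BH3 protein, *Crtap* (0.95), which encodes a component of the collagen prolyl hydroxylation complex, and *Dmac2* (0.94), whose product acts in the assembly of respiratory complex I. The 9 points share the 3 groups and one scaling, so these values mostly describe differences between groups.

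Upstream of the members, most ligand genes were too dim to be tested. Of 25 genes for Wnt ligands, R-spondins and ligand export, 7 were tested, 0 passed in *Winnie* and 1 fell in *Eeyore* mice. This was *Rspo3*, which encodes an R-spondin of the crypt stroma, at 326, 252 and 390.2 in wild-type and 149.5, 178.5 and 124.5 in *Eeyore* mice (log2 fold change -1.09, adjusted p = 0.00729). Median centring gave 1 gene of the ligand list higher and 0 lower in *Winnie* mice, and 0 higher and 1 lower in *Eeyore* mice. Of 14 tested Wnt and R-spondin receptors, 3 fell and 1 rose in *Winnie*, and 6 fell and 0 rose in *Eeyore* mice. The Frizzled receptors *Fzd4* (-1.36 in *Winnie* and -1.49 in *Eeyore*) and *Fzd2* (-1.26 and -1.09) fell in both strains. Both *Fzd4* calls ended with the mean over its probe sets, at -0.51 for *Winnie* (adjusted p = 0.446) and -0.50 for *Eeyore* (adjusted p = 0.436). The *Eeyore* call of *Fzd2* ended with median centring and without wild-type mouse 2 or 3. The co-receptor gene *Lrp6* fell in *Eeyore* mice (-0.68, adjusted p = 0.00181) and was at -0.31 in *Winnie* mice (adjusted p = 0.0876), and its call ended with median centring (adjusted p = 0.0634). *Fzd1*, another Frizzled gene, was at 772, 905 and 1033 in wild-type, 1201, 1456 and 1203 in the *Winnie* group and 837, 691 and 617 in the *Eeyore* group. It rose in *Winnie* mice (0.51, adjusted p = 0.0405), a call that 10 of 21 alternatives kept, and was lower in *Eeyore* than in *Winnie* mice (-0.85, adjusted p = 0.0153), a call that 16 of 21 kept. The median over the receptors was -0.40 in *Winnie* and -0.63 in *Eeyore* mice, beside -0.09 in each strain over all tested probe sets. With median centring the receptor median was 0.01 and -0.31, beside 0.32 and 0.24 over all tested probe sets. That scaling gave 2 receptors lower and 2 higher in *Winnie* mice and 1 lower and 0 higher in *Eeyore* mice.

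Of 7 tested secreted antagonists, 2 fell in *Winnie* (*Frzb*, which binds Wnt proteins, at -1.14, and *Dkk3*, a Dickkopf family member, at -1.10) and 1 in *Eeyore* mice (*Dkk3*, -1.02), and 0 rose. The *Frzb* call was kept by 12 of 19 alternatives and ended with median centring, which left *Dkk3* lower in each strain. Of 18 tested genes of signal transduction, 4 fell in *Winnie* and 3 in *Eeyore* mice. They included the corepressor *Tle3* (-1.09 and -1.18), the β-catenin kinase *Gsk3b* (-0.62 and -0.66), the β-catenin cofactor *Bcl9l* in *Winnie* (-0.83) and the destruction complex scaffold *Apc* in *Eeyore* mice (-0.58). The median over these 18 genes was close to that of all genes (-0.05 and -0.10). With median centring it turned positive (0.36 and 0.22), as did that over all tested probe sets (0.32 and 0.24). Of the 18 genes, 7 and 3 were then called higher and 1 lower in each strain. The calls of *Gsk3b*, *Bcl9l* and *Apc* ended there, and those of *Tle3* ended with the mean over its probe sets (adjusted p = 0.0763 and 0.0794).

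Of 8 tested Wnt target genes outside the member list, 2 fell in *Winnie*, and 2 fell and 1 rose in *Eeyore* mice. *Ephb3*, which encodes a receptor that positions cells along the crypt, read 704, 673 and 694 in wild-type, 315, 341 and 242 in the *Winnie* group and 275, 412 and 445 in the *Eeyore* group, so that all mutants lay below wild-type. It fell in *Winnie* (-1.22 ± 0.21, adjusted p = 0.00234) and *Eeyore* mice (-0.90 ± 0.21, adjusted p = 0.0077). *Cdca7*, a Myc-responsive gene, also fell (-0.52 and -0.69). *Ccnd1*, which encodes cyclin D1, rose in *Eeyore* mice (0.40, adjusted p = 0.0374) and was at 0.10 in *Winnie* mice (adjusted p = 0.621). The *Ccnd1* call was kept by 10 of 21 alternatives. With median centring 1 gene of this list was called lower and 1 higher in *Winnie*, and 0 lower and 1 higher in *Eeyore* mice by limma, with the *Eeyore* value of *Ephb3* just short of the threshold (-0.58, adjusted p = 0.0502). Both *Cdca7* calls ended there and with the mean over its probe sets.

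Other crypt base and stem cell genes moved in both directions. Of 12 tested, 6 fell and 3 rose in *Winnie* mice, and the same numbers fell and rose in *Eeyore* mice. With median centring 3 fell and 4 rose in each strain. *Cdk6*, which encodes a cell cycle kinase, read 1601, 1727 and 1490 in wild-type, 480, 525.5 and 672 in the *Winnie* group and 562, 629 and 337 in the *Eeyore* group (-1.53, adjusted p = 0.000826 and -1.70, adjusted p = 0.000258). Both *Cdk6* calls ended with the mean over its probe sets (adjusted p = 0.0525 and 0.0826). *Rgmb*, which encodes a Bmp co-receptor, read 1174.5, 1180 and 1206 in wild-type, 531.5, 597 and 601.5 in the *Winnie* group and 264, 311 and 169 in the *Eeyore* group. It fell in *Winnie* (-1.04, adjusted p = 0.00451) as well as *Eeyore* mice (-2.30, adjusted p = 2.08e-05) and was lower in *Eeyore* than in *Winnie* mice (-1.26, adjusted p = 0.00564), a difference of -0.42 with the mean over its probe sets (adjusted p = 0.41). *Phlda1*, a marker of intestinal stem and progenitor cells, rose from 1448 to 1601 in wild-type to 3068 to 3921 in *Winnie* and 3980 to 4947 in *Eeyore* mice (1.21 and 1.53). *Aqp4*, which encodes a water channel, rose from 4535 to 6809 in wild-type to 12041 to 15985 in *Winnie* and 10777 to 12038 in *Eeyore* mice (1.42 and 1.10).

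Genes linked to a fetal-like state of injured epithelium moved in both directions, with 2 rising and 1 falling of 7 in *Winnie* and 2 rising and 3 falling in *Eeyore* mice. With median centring *Winnie* mice had 3 higher and 1 lower, and *Eeyore* mice 2 higher and 0 lower. *Clu*, which marks revival stem cells after injury, fell in *Winnie* (-1.37, adjusted p = 0.00017) and *Eeyore* mice (-0.51, adjusted p = 0.0194), and was higher in *Eeyore* than in *Winnie* mice (0.85, adjusted p = 0.00718). *Anxa1*, which encodes an anti-inflammatory annexin, rose (0.95 and 0.85), as did the calcium-binding protein gene *S100a6* (0.22 and 0.27). The *Anxa1* calls ended with the mean over its probe sets (adjusted p = 0.0922 and 0.855), and those of *S100a6* with epithelial centring (0.05 and -0.02). The alarmin gene *Il33* (-0.91) and *Ccn2*, which encodes a matricellular protein (-0.86), fell in *Eeyore* mice. The calls of *Il33* (kept by 12 of 20 alternatives), *Ccn2* (18 of 21) and *Clu* (16 of 21) in *Eeyore* mice ended with median centring, and each also ended without some single mice, namely wild-type mouse 2 or 3 or *Eeyore* mouse 2 or 3 for *Il33*, wild-type mouse 3 or *Eeyore* mouse 2 for *Ccn2*, and wild-type mouse 2 or *Eeyore* mouse 1 or 2 for *Clu*. For the Bmp pathway, which restrains stem cells, *Winnie* mice had 1 of 11 genes higher and 0 lower, and *Eeyore* mice had 1 higher and 2 lower. These counts became 3 and 0, and 1 and 0, with median centring, and 1 and 1, and 1 and 6, with epithelial centring. The Bmp target *Id1* rose in both (1.12 and 0.92), while *Id2* (-0.46) and the ligand gene *Bmp2* (-0.67) fell in *Eeyore* mice, calls that both ended with median centring. *Id2* was also lower in *Eeyore* than in *Winnie* mice (-0.54, adjusted p = 0.0431), a call that 8 of 21 alternatives kept. Of 7 Notch pathway genes 2 fell and 0 rose in each strain, namely the receptor genes *Notch1* (-0.79 and -0.80) and *Notch2* (-0.75 and -0.92). With median centring *Winnie* mice had 1 higher and 0 lower, and *Eeyore* mice 1 higher and 1 lower. The *Notch1* calls ended there in both strains (kept by 11 and 14 of 21 alternatives) and that of *Notch2* in *Winnie* mice (16 of 20), and with the mean over probe sets all of these calls ended.

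**Figure D4:**
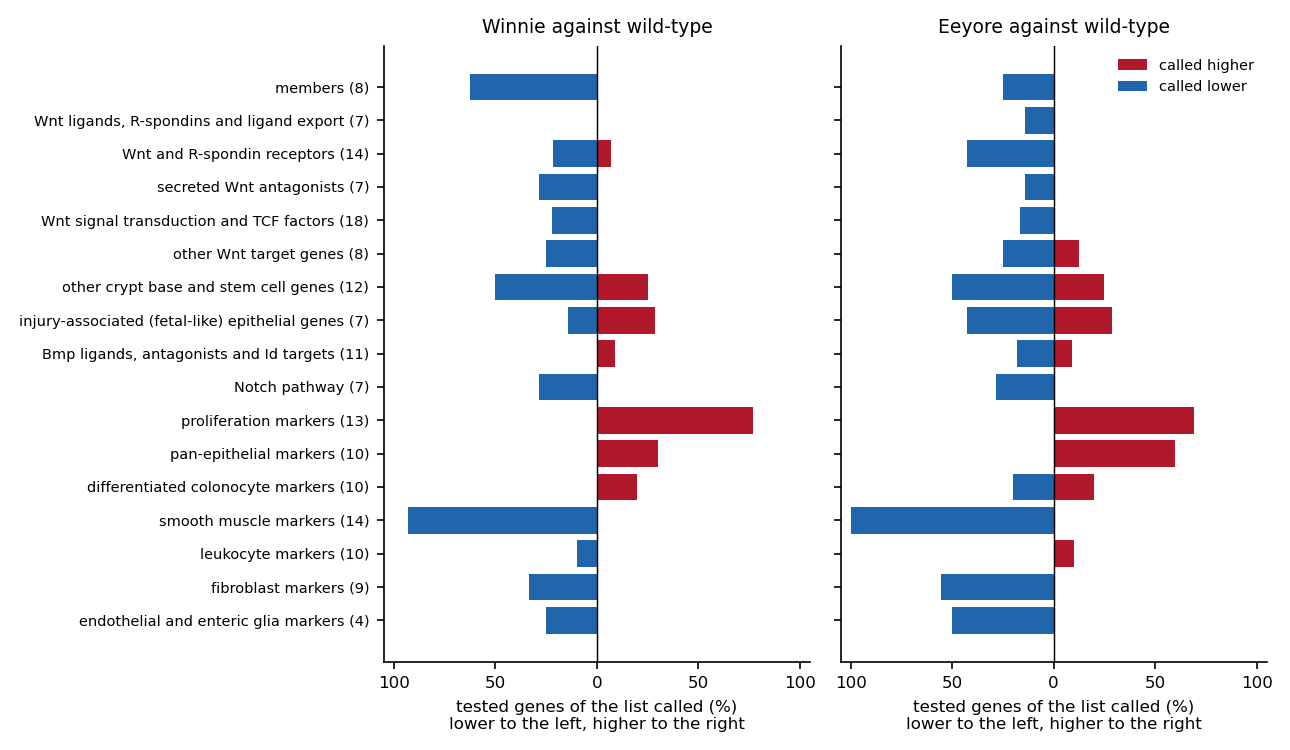
Share of the tested genes of each list (horizontal axis, percent, tested genes in brackets) called lower (to the left of 0) or higher (to the right) against wild-type in *Winnie* (left panel) and *Eeyore* mice (right panel). Of the 8 members 5 are lower in *Winnie* and 2 in *Eeyore* mice, proliferation markers are called higher only, and smooth muscle markers lower only.

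Of 13 markers of dividing cells, 10 rose in *Winnie* and 9 in *Eeyore* mice, and 0 fell, with medians of 0.60 and 0.56. The mitotic kinase gene *Cdk1* read 1376 to 1412 in wild-type, 2341 to 3629.5 in *Winnie* and 2677.5 to 3043 in *Eeyore* mice (1.08 and 1.04). The cyclin gene *Ccna2* (1.08 and 0.81), the mitotic kinase gene *Plk1* (0.99 and 1.12) and the spindle checkpoint gene *Bub1* (1.36 and 1.25) rose in both strains. For *Bub1* the mean over its probe sets stood at -1.51 (log2) in the *Eeyore* comparison, a call in the other direction, and its *Winnie* call ended there. The number of these markers that rose was 7 in *Winnie* and 4 in *Eeyore* mice with epithelial centring, 12 in each strain with median centring, and 6 in each strain with the mean over probe sets.

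Markers of smooth muscle fell on the mutant arrays, 13 of 14 in *Winnie* and 14 of 14 in *Eeyore* mice, with medians of -1.10 and -1.53, and their summed signal was 166836 to 173952 in wild-type, 77461 to 85659 in *Winnie* and 64186 to 70856 in *Eeyore* mice. Median centring gave 12 of these markers lower in *Winnie* and 14 in *Eeyore* mice, and 0 higher. The contractile protein gene *Myh11* (-1.39 and -1.97) and the muscle scaffold genes *Synm* (-1.94 and -2.66) and *Synpo2* (-1.42 and -2.10) gave the largest falls of this list. *Myh11* (-0.58, adjusted p = 0.01) and *Synpo2* (-0.67, adjusted p = 0.0424) were also lower in *Eeyore* than in *Winnie* mice, calls that 19 and 9 of 21 alternatives kept, and for *Synpo2* the mean over its probe sets gave 0.23. Of 10 pan-epithelial markers, 3 rose in *Winnie* and 6 in *Eeyore* mice and 0 fell, and with median centring 9 rose in each strain. Among those that rose were the brush border gene *Vil1* (0.48 and 0.63) and the keratin gene *Krt19* (0.43 and 0.61). The tight junction genes *Cldn7* (0.29 and 0.44) and *Cldn3* (0.25, adjusted p = 0.0632, and 0.52, adjusted p = 0.00129) belong to the same list. Their summed signal was 176316 to 184722 in wild-type, 205415 to 213957 in *Winnie* and 223319 to 244049 in *Eeyore* mice.

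Of 10 markers of differentiated colonocytes, *Winnie* mice had 2 higher and 0 lower, and *Eeyore* mice had 2 higher and 2 lower. With median centring these counts were 5 and 0, and 2 and 0. The sodium-proton exchanger gene *Slc9a3* (1.16 and 1.16) and the keratin gene *Krt20* (0.94 and 0.77) rose, and the cytochrome gene *Cyp2c55* fell in *Eeyore* mice (-0.91). Both *Slc9a3* calls ended with the mean over its probe sets, at 0.58 for *Winnie* (adjusted p = 0.494) and 0.02 for *Eeyore* (adjusted p = 0.981). The *Cyp2c55* call was kept by 16 of 21 alternatives and ended with median centring and without wild-type mouse 1 or 2. The summed signal of these markers was 213602 to 244212, 191312 to 264649 and 198884 to 226827 in wild-type, *Winnie* and *Eeyore* mice, with overlap.

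Of 9 fibroblast markers, 3 fell in *Winnie* and 5 in *Eeyore* mice. They included the matrix proteoglycan genes *Lum* (-0.84 and -1.10) and *Dcn* (-0.74 and -0.83), the surface marker *Thy1* in *Winnie* (-0.89) and the growth factor receptor genes *Pdgfrb* (-1.003) and *Pdgfra* (-0.88) in *Eeyore* mice. With median centring 1 fibroblast marker fell in *Winnie* and 3 in *Eeyore* mice, and the calls of *Thy1*, of *Dcn* in *Winnie* and of *Pdgfra* ended. With the mean over probe sets the *Dcn* (adjusted p = 0.527 and 0.719) and *Pdgfra* calls (adjusted p = 0.438) ended. Their sums were 38103 to 39909 in wild-type, 25782 to 31405 in *Winnie* and 27191 to 30634 in *Eeyore* mice. Of 4 tested endothelial and glial markers, 1 fell in *Winnie* (the endothelial receptor gene *Tek*, -1.37) and 2 in *Eeyore* mice (*Tek*, -1.46, and the growth factor receptor gene *Kdr*, -1.43). The sums over 7 such markers, including those too dim to be tested, were 1070.5 to 1134, 579.7 to 617 and 546 to 856. The *Winnie* call of *Tek* ended with median centring and without wild-type mouse 1. Median centring gave 0 of the 4 endothelial and glial markers lower in *Winnie* and 2 in *Eeyore* mice, and 0 higher. Of 10 tested leukocyte markers, 1 fell in *Winnie* (the B cell gene *Cd79b*, -0.79) and 1 rose in *Eeyore* mice (the lysozyme gene *Lyz2* of myeloid cells, 1.03). The sums over 12 leukocyte markers, including those too dim to be tested, overlapped at 9062 to 11083, 10064.5 to 12553 and 10471 to 21344. With median centring *Winnie* mice had 1 leukocyte marker higher and 0 lower, and *Eeyore* mice 6 higher and 0 lower, and the *Cd79b* call was kept by 8 of 20 alternatives. The members at their brightest probe sets were compared in the same RNA, and the part of these cell types in the member values was not tested. With each array centred on the pan-epithelial markers, the log2 fold changes of *Lgr5* were -1.30 in *Winnie* and -0.88 in *Eeyore* mice.

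**Figure D5:**
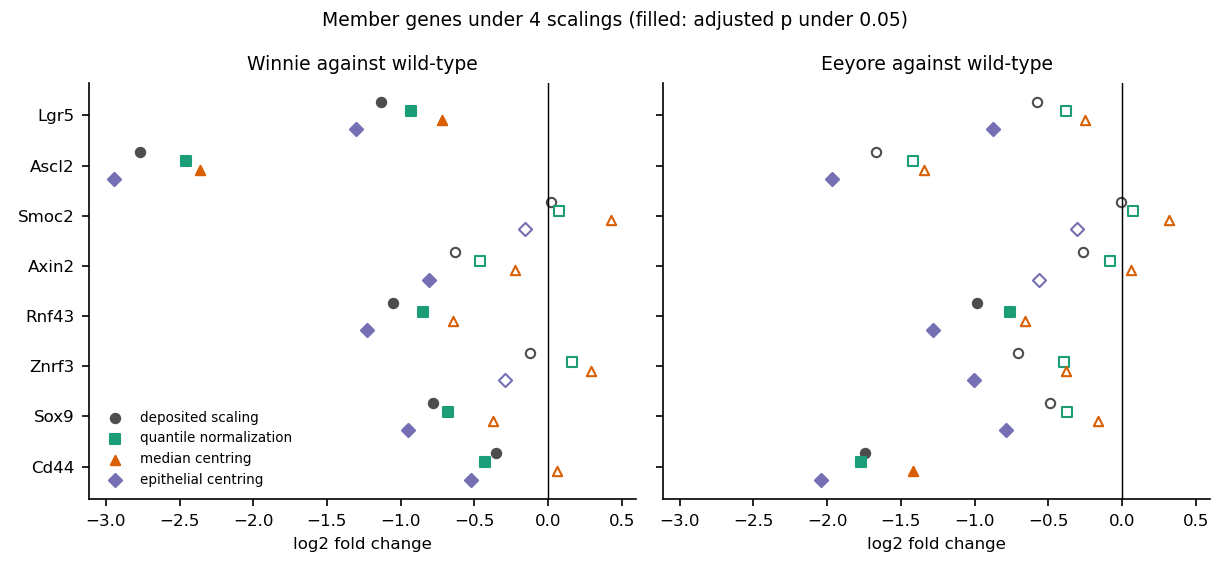
Log2 fold change against wild-type (horizontal axis, log2 units) of the brightest probe set of each of the 8 tested members under 4 scalings of the arrays, in *Winnie* and *Eeyore* mice, filled where the adjusted p is under 0.05. *Lgr5* and *Ascl2* stay below 0 under every scaling shown, whereas *Cd44* in *Winnie* mice moves from -0.35 to 0.06 with median centring.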

How the data were processed

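The authors deposited linear signal intensities for 45101 probe sets, 64 of them controls, on 9 Affymetrix mouse arrays, each scaled to a mean of 500 after trimming the lowest and highest 2%. The signal algorithm is not given in the sources used here. They were log2-transformed without further scaling. Tests covered probe sets whose mean log2 signal reached the 50th percentile, 6.43 (85.9 in linear signal). Genes came from the platform annotation, with 34945 probe sets paired with 1 symbol, 932 with several and 9160.0 with none. A gene stood for its brightest probe set. The 3 groups of 3 mice entered 1 limma model (version 3.58.1, under R 4.3.3, with lmFit and a trended eBayes), with Benjamini-Hochberg adjustment over the 22519 tested probe sets and a threshold of 0.05. The fit was tested on simulated data. Genes outside the members were named by a rule, up to 3 of the largest called changes of each list and strain, and the 5 genes most like *Lgr5*. Members and lists were chosen with earlier results of these data known. Median centring over tested probe sets was added after the data were seen. Epithelial centring sets the mean of the pan-epithelial markers equal on each array. The mean over probe sets averages the log2 signals of all probe sets of a gene with equal weight. It includes probe sets too dim to be tested alone, so a lost call there can reflect such probe sets. The p-values set a group difference against the spread between mice, which the model shares over the 3 groups and moderates across probe sets. In the comparisons with wild-type they cannot separate *Muc2* allele from sex. With 3 arrays per group the precision is limited. Promoter sequences are from RefSeq (GRCm38.p6). Figures used matplotlib 3.10.9 under Python 3.11.15.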

Additional observations from a re-analysis of the deposited data

Results flagged for a closer look

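For 1 of 8 tested members and 6 named genes of the other lists, the effect in *Eeyore* mice differed from that in *Winnie* mice. This was the limma test of *Eeyore* against *Winnie* itself, adjusted over all tested probe sets. The other lists held 161 tested genes, and 3 of 14 smooth muscle markers were lower, including a marker not named here. Over all tested genes 1.30% were lower and 1.29% higher. The log2 difference was -1.39 for *Cd44* (1423760_at), -0.85 for *Fzd1* (1437284_at), -1.26 for *Rgmb* (1433586_at), 0.85 for *Clu* (1437689_x_at), -0.54 for *Id2* (1435176_a_at), -0.58 for *Myh11* (1448962_at) and -0.67 for *Synpo2* (1435399_at). For *Cd44* the other tested probe sets gave -0.32 (1434376_at) and -0.55 (1452483_a_at), neither of which passed the test. The mixed background of the *Eeyore* mice and their *Muc2* allele cannot be told apart in these differences.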

How the results depend on the processing

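Of 8 calls for members, 2 (*Ascl2* in *Winnie* and *Cd44* in *Eeyore* mice against wild-type) held under every alternative that tested them. Of 24 member values, 11 were called in no setting. Some values not called in the main fit passed in a few alternatives, all in the downward direction. These were *Axin2* in *Winnie* mice (4 of 20), and in *Eeyore* mice *Ascl2* (5 of 19), *Lgr5* (4 of 20), *Sox9* (3 of 21) and *Znrf3* (2 of 19). In *Winnie* mice the number of member genes called, 5 of 8, became 2 with median centring, 2 of 3 tested with a filter at the 75th percentile, 1 of 6 tested with the mean over the gene's probe sets, and 3 to 6 on leaving out 1 mouse (3 without wild-type mouse 1 or 2). In *Eeyore* mice it was 2 of 8 and became 1 with median centring, 6 with epithelial centring, 1 with the 75th percentile, 4 with only the groups compared, and 1 to 4 on leaving out 1 mouse (1 without wild-type mouse 2, 4 without *Winnie* mouse 2). Between the strains it was 1 and became 0 with the mean over probe sets. Over all 22519 tested probe sets, those called lower in *Winnie* mice went from 2639 to 853 with median centring. In *Eeyore* mice they went from 3842 to 1877 with median centring and 7887 with epithelial centring. With the 75th percentile, 1453 and 1873 of 11260 probe sets were called lower in *Winnie* and *Eeyore* mice. With the mean over probe sets, 827 of 10119 genes were called lower in *Winnie* mice. Of the 24 member values, 10 changed sign in some alternative. Among these only *Cd44* in *Winnie* mice was called in the main fit, and it changed sign with median centring (0.058). Of 75 calls of named genes in the other lists, 35 held under every alternative, and the calls of *S100a6* (9 of 21), *Bcl9l* (9 of 19) and *Cd79b* (8 of 20) in *Winnie* mice held under few. Calls in the other lists went from 60 to 37 in *Winnie* mice with the mean over probe sets. Between the strains they went from 7 to 11 with epithelial centring, 2 with no intensity trend, 4 with only the groups compared, 1 with the mean over probe sets, and 3 to 16 on leaving out 1 mouse (3 without *Eeyore* mouse 2, 16 without *Eeyore* mouse 1, 4 without wild-type mouse 2 or *Winnie* mouse 2 or 3). The cause of these changes was not tested, beyond the fewer genes tested where stated.

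Deviations of same-numbered mice correlated at -0.01 to 0.16, over 0.1 in 1 of 9 pairs. Between wild-type and *Winnie* mice, same-numbered pairs were at 0.068, 0.085 and 0.164, and pairs of different number at -0.095 to 0.020. In the comparisons with *Eeyore* mice these ranges overlapped. The values do not settle whether mouse numbers pair the samples. With the mouse number as a replicate block, 5, 2 and 1 member genes were called in *Winnie*, *Eeyore* and between the strains, and 57, 77 and 6 genes of the other lists. Signals near the lower quartile of an array carry little precision.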
